A study of Mus musculus with 20 samples.

Results

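The genes described here encode enzymes that add or remove acetyl and methyl marks on chromatin: histone deacetylases (Hdac), sirtuins (Sirt), lysine demethylases (Kdm), lysine acetyltransferases (Kat), SET domain methyltransferases (Setd), DNA methyltransferases (Dnmt), Tet dioxygenases (Tet) and arginine methyltransferases (Prmt). They were chosen by name, as every gene on the array whose symbol carries 1 of these stems followed by a number. Setdb1 and Setdb2 were included. The choice was made with earlier results of these data known. The rule found 63 of the 30222 gene names on the array, measured by 98 of 39429 probes. Of these, 39 of the 10355 genes that could be tested in all samples had a probe with a spot at least 2 times above background and uniform in each of the 20 samples. The probes of Hdac2 and Setd2 are printed 10 times, and those of their spots that failed in a sample were left out. A further 23 passed that rule only within 1 condition or more, and Kdm5d passed it in none.

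The RNA came from dorsal root ganglion (DRG) neurons of NIH Swiss mouse embryos at 13.5 days, grown in culture and read on 10 two-colour Agilent arrays. The 5 conditions were unstimulated neurons and neurons stimulated with electric pulses for 2 hr or 5 hr in the 18/1 pattern (18 action potentials per burst, 1 burst every 1 min) or the 90/5 pattern (90 per burst, 1 burst every 5 min), so that both patterns deliver action potentials at 1 average rate and differ in their grouping. Each condition had 4 samples on 2 arrays, the Cy3 and Cy5 samples of an array belonging to the same condition. All conditions shared the culture, the treatment with a drug against dividing cells, and a last night in medium without nerve growth factor or serum; samples came from pooled cultures, so that the p-values below measure the spread between these samples, which may be partly technical. Whole cultures were extracted, where fewer cells of a type and less RNA per cell cannot be told apart.

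Chromatin enzymes act in opposed pairs. Acetyltransferases and deacetylases set histone acetylation, methyltransferases and demethylases set histone methylation, and DNA methyltransferases write the cytosine methylation that Tet enzymes oxidise. In neurons, several are known to respond to firing, among them the class IIa deacetylases (Hdac4, Hdac5, Hdac7 and Hdac9), which move between cytoplasm and nucleus with calcium signals and bind MEF2 transcription factors.

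The arrays lay on 3 slides, which bear on every value below. Slide 1 held unstimulated and 18/1 2 hr samples, slide 2 held 18/1 5 hr (arrays 5 and 6) and 90/5 2 hr (arrays 7 and 8), and slide 3 held 90/5 5 hr. Only 18/1 2 hr against unstimulated and 90/5 2 hr against 18/1 5 hr therefore compare samples of 1 slide; elsewhere slide and condition cannot be told apart. Median signal over background lay between 2.27 and 2.94 for slide 1, between 3.64 and 10.4 for slide 2, and between 2.66 and 4.91 for slide 3. Spots marked as non-uniform numbered 6 to 36 per sample on slide 1 and 37 to 85 on slide 3, but 5319 to 14642 on arrays 5 and 6, 3138 to 6476 on array 8, and 45 to 139 on array 7. Having 2 arrays for each condition limits the precision of all values. The culture protocol in the labels names spinal cord as the source. All 14 sensory neuron markers were well above background in all 20 samples. Of the spinal cord markers, Mnx1 was so in 4 of 20 samples, Olig2 in 5, Chat in 7 and Slc32a1 in 17. In the 4 unstimulated samples alone, Mnx1 and Olig2 were so in 0, Chat in 2 and Slc32a1 in 4.

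The widest changes among these enzymes were seen after 5 hr of the 18/1 pattern. Of the 39 members, 7 rose (17.9%, against 14.9% of all genes tested) and 14 fell (35.9%, against 29.7%), by limma with Benjamini-Hochberg adjustment at 0.05. After 2 hr of the 90/5 pattern 4 rose (10.3%, against 3.56% of all genes) and 3 fell (7.69%, against 3.47%). No member passed after 2 hr of 18/1, where 0.0193% of all genes were called higher and 0% lower. Nor did any after 5 hr of 90/5, where 0.0483% were called higher and 0.0193% lower. At an unadjusted p under 0.05 the numbers of members were 0 and 3 of 39, beside 93 and 382 of all 10355 genes. The median log2 difference of the members was -0.18 at 18/1 5 hr, beside -0.23 for all genes, and 0.03 at 90/5 2 hr, beside -0.08. When each sample was only centred on its median, 3 members rose and 20 fell at 18/1 5 hr, beside 52.6% of all genes called. The median of all genes there was -0.81. At 90/5 2 hr this centring gave 6 members called, all of them higher, beside 4.97% of all genes.

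**Figure D1:**
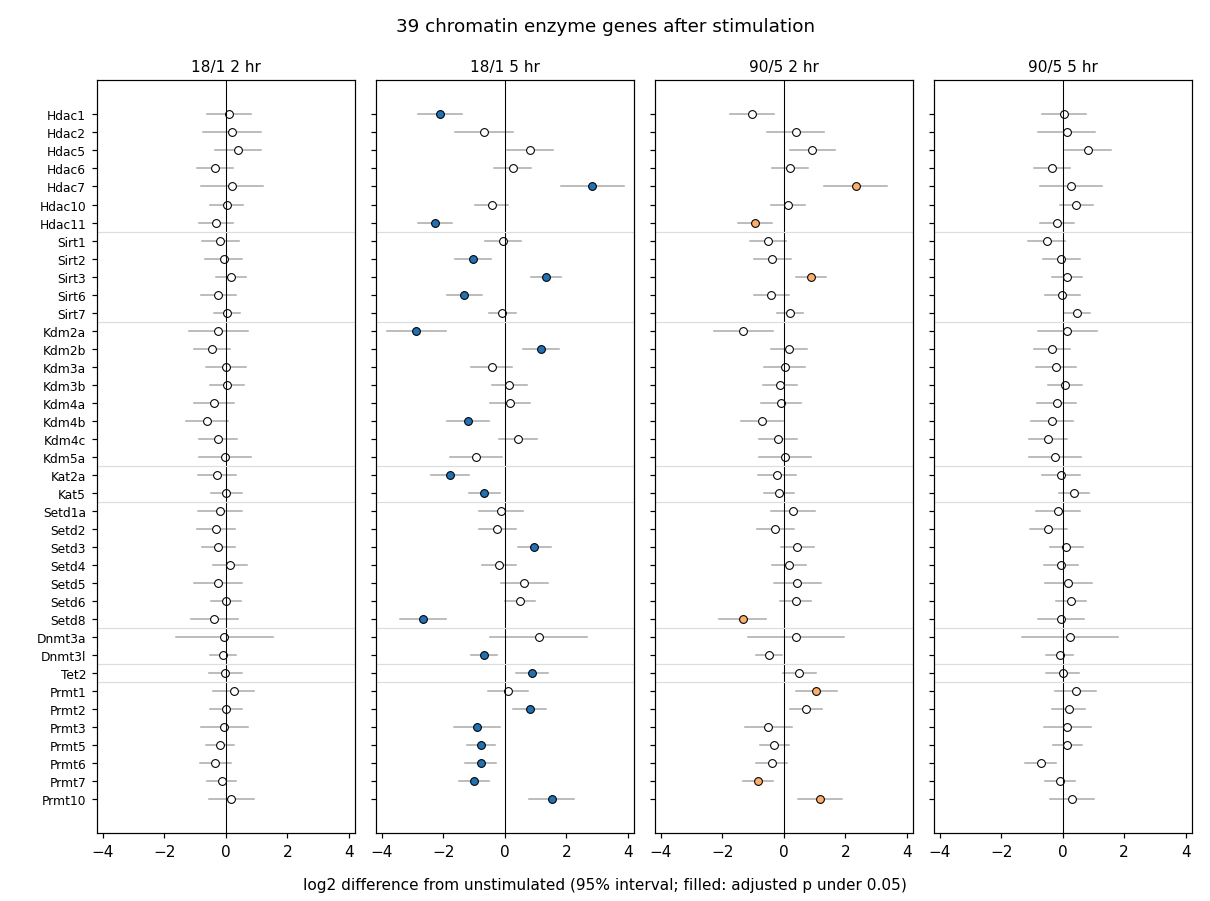
Log2 difference from unstimulated neurons for the 39 members tested, by family, in the 4 stimulated conditions; bars are 95% intervals, and filled points passed the adjusted threshold. Filled points stand in 18/1 5 hr (7 higher, 14 lower) and 90/5 2 hr (4 higher, 3 lower) and in neither of the other panels.

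Hdac7, Prmt10 and Sirt3 rose in both conditions of slide 2, and Hdac11, Setd8 and Prmt7 fell in both. With each sample only centred on its median, these 3 falls did not pass at 90/5 2 hr. Prmt1 rose at 90/5 2 hr. The 250 bases before the transcription start are shown for those of them with a single promoter in RefSeq (GRCm38.p6), since genes that move together invite a look at their promoters. They lie at chr8:77549147-77549396 on the plus strand (Prmt10, listed by RefSeq as Prmt9), chr6:91156565-91156814 on the plus strand (Hdac11), chr8:106210804-106211053 on the plus strand (Prmt7) and chr7:44986421-44986670 on the minus strand (Prmt1). Capitals mark 4 motifs on either strand, which may overlap: the core TGACG of the CRE, the E-box CACGTG, the GC box GGGCGG and the CCAAT box.
Prmt10: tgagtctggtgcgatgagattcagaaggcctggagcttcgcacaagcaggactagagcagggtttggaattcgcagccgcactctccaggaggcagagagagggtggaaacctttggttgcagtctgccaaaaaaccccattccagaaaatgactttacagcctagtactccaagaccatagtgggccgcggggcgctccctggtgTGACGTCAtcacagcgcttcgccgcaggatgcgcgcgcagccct
Hdac11: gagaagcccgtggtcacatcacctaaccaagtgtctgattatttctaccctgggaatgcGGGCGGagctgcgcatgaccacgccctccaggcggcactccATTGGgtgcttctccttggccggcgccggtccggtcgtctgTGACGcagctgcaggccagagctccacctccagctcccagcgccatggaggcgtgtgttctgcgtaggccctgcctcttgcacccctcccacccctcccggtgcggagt
Prmt7: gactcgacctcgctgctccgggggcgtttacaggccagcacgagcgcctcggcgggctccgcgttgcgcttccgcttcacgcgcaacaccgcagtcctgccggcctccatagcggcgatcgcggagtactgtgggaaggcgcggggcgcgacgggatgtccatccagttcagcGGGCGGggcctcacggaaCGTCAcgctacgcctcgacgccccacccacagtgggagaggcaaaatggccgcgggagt
Prmt1: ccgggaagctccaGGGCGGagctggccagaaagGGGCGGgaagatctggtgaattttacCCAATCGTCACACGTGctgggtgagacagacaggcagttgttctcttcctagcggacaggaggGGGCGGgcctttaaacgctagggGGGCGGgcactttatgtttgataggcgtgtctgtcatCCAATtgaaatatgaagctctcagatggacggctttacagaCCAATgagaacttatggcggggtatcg
Prmt10 was the only member of 54 with an entry in the promoter table that held the full CRE, TGACGTCA (1.85%, beside 478 of 27025 genes with an entry, 1.77%; a gene with several promoters counts once). The core TGACG, which the full CRE contains, was found in 19 members (35.2%, beside 19.8% of all those genes). GC boxes were found in 35 (64.8%, beside 35.4%), CCAAT boxes in 27 (50%, beside 37.5%) and E-boxes in 8 (14.8%, beside 6.86%). Of the 3 members higher in both conditions 2 held the core in at least 1 listed promoter, as did 2 of the 3 lower in both. A match describes these letters only.

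Hdac7 had the largest rise of the deacetylases tested in all samples. Its probe (chr15:97623208-97623267 in mm9, as are all probe positions here) read 8.66, 9.58, 9.14 and 9.60 in the unstimulated samples on the normalized log2 scale. After 5 hr of 18/1 it read 12.41 and 13.41 on array 5 and 10.82 and 11.73 on array 6, and after 2 hr of 90/5 it read 10.40 and 11.58 on array 7 and 11.80 and 12.56 on array 8. Every sample of these conditions stood above every unstimulated sample, and the 18/1 2 hr (8.91 to 9.74) and 90/5 5 hr samples (8.77 to 10.10) overlapped with unstimulated ones. The log2 difference was 2.85 ± 0.47 (SE) at 18/1 5 hr (7.19-fold, limma adjusted p = 0.000102) and 2.34 ± 0.47 at 90/5 2 hr (5.06-fold, adjusted p = 0.00427). The rise at 90/5 2 hr did not pass without array 8, nor without array 1 or array 2, although its size without array 8 was still 1.75. By the methods' t-test, an unequal-variance test on linear values, neither rise of Hdac7 passed.

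Hdac11, the class IV deacetylase, fell. The probe (chr6:91124085-91124144) read 10.34, 10.40, 10.29 and 10.48 in unstimulated samples, 8.04, 7.80, 8.31 and 8.25 at 18/1 5 hr, and 9.67, 10.10, 8.95 and 9.02 at 90/5 2 hr, with the lower pair on array 8. None of these stimulated samples reached the lowest unstimulated sample, nor did those of 18/1 2 hr (9.90 to 10.25). This gave a log2 difference of -2.28 ± 0.26 at 18/1 5 hr (4.85-fold lower, limma adjusted p = 2.47e-06) and -0.94 ± 0.26 at 90/5 2 hr (adjusted p = 0.0287). The first passed under all 43 alternatives of processing, with adjusted p up to 0.000617. The second was lost in 15 of 43, among them without array 8, where it was -0.50, and without array 1, 2, 3, 4 or 10.

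Class I enzymes gave a mixed picture. Hdac1, a subunit of the Sin3, NuRD and CoREST complexes, read 8.77, 8.79, 8.85 and 8.79 in unstimulated samples and 6.59, 6.42, 6.87 and 6.82 at 18/1 5 hr, where 1 of 4 samples was well above background. This gave -2.12 ± 0.33 (limma adjusted p = 6.17e-05). A different probe for Hdac1, left out of the main test for a non-uniform spot, differed by 1.11 in the opposite direction (adjusted p = 0.00142 in the fit of single probes), and the third by -0.78 (adjusted p = 0.0671), so the direction for the gene rests on the choice of probe. At 90/5 2 hr the arrays parted, with 8.53 and 8.68 on array 7 and 7.07 and 6.78 on array 8, and the difference of -1.03 ± 0.33 did not pass (adjusted p = 0.062). Hdac2, the close relative of Hdac1, differed by -0.67 ± 0.44 at 18/1 5 hr (adjusted p = 0.22), with 7.71 and 7.47 on array 5, below all unstimulated samples, and 8.80 and 8.82 on array 6, within their range of 8.51 to 9.18. Hdac3, the catalytic subunit of NCoR complexes, differed by 0.85 ± 0.34 (adjusted p = 0.0559).

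Of the other class IIa enzymes, Hdac5 read 12.70 to 12.96 in unstimulated samples, and all samples of 18/1 5 hr (13.12 to 14.33), 90/5 2 hr (13.54 to 14.11) and 90/5 5 hr (13.28 to 14.40) stood above that range. The log2 differences were 0.81, 0.93 and 0.82, each ± 0.35, and none passed (limma adjusted p = 0.0623, 0.108 and 1). Hdac4 read 9.75 to 10.15 in unstimulated samples and lower, without overlap, at 18/1 5 hr (8.80 to 9.36) and 90/5 5 hr (8.67 to 9.68), with differences of -0.83 and -0.93 ± 0.38 that did not pass (adjusted p = 0.0936 and 1). Hdac9 passed the spot rule within 90/5 5 hr alone, and all 4 of its spots at 18/1 5 hr failed that rule. It read 6.83 to 6.99 in unstimulated samples, was under 2 times background in 9 of 20 samples, and read 9.33 and 10.16 on array 5 and 8.07 and 8.31 on array 6 of 18/1 5 hr. Its log2 difference of 2.07 ± 0.39 at 18/1 5 hr (adjusted p = 0.00067) is given for these reasons as a description. Hdac6, Hdac8 and Hdac10 did not pass against unstimulated samples in any of the 4 conditions, although another Hdac10 probe fell by 0.81 at 18/1 5 hr (adjusted p = 0.0308 in the fit of single probes).

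**Figure D2:**
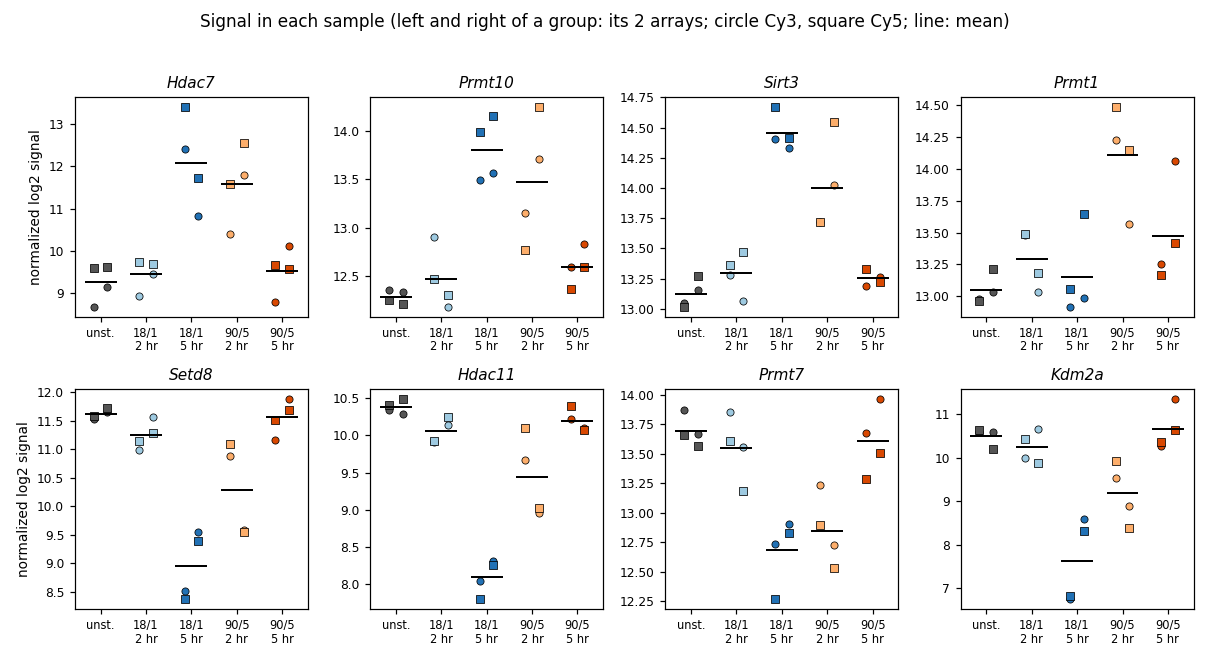
Normalized log2 signal in each sample for 8 members; points left and right within a condition are its first and second array, circles are Cy3, squares Cy5, and lines are means of 4 samples. Hdac7, Prmt10 and Sirt3 stand above unstimulated samples at 18/1 5 hr and 90/5 2 hr, Setd8, Hdac11, Prmt7 and Kdm2a below, and Prmt1 above at 90/5 2 hr.

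Sirtuins, the NAD-dependent deacylases, moved both ways. Sirt3, the main deacetylase of mitochondria (probe at chr7:148049581-148049640), read 13.05, 13.02, 13.15 and 13.27 in unstimulated samples. It read 14.41, 14.67, 14.33 and 14.41 at 18/1 5 hr, with 2 of these spots saturated, and 13.72, 13.72, 14.03 and 14.55 at 90/5 2 hr. All 8 stimulated values lay above the unstimulated ones, and the 4 of 90/5 5 hr (13.19 to 13.33) did not stand apart. The log2 difference was 1.33 ± 0.23 at 18/1 5 hr (2.52-fold, limma adjusted p = 0.000141) and 0.88 ± 0.23 at 90/5 2 hr (1.84-fold, adjusted p = 0.0233); the latter did not pass without array 8, where it was 0.59, nor without array 1, 2, 3 or 4. Sirt2, which also deacetylates tubulin, fell by 1.04 at 18/1 5 hr (adjusted p = 0.00494). Sirt6, a chromatin-bound sirtuin, read 8.36 to 8.56 in unstimulated samples and 6.94, 6.71, 7.45 and 7.32 at 18/1 5 hr, 2 of them not well above background, a difference of -1.32 ± 0.27 (adjusted p = 0.000557), while a second probe for Sirt6 differed by 1.14 in the opposite direction (adjusted p = 0.0679 in the fit of single probes). Sirt1, the nuclear sirtuin most studied in neurons, differed by -0.06 ± 0.28 at 18/1 5 hr. At 90/5 2 hr (8.28 to 8.89) and 90/5 5 hr (8.29 to 8.76) its samples lay below the unstimulated range (8.94 to 9.38), but the differences of -0.51 and -0.52 ± 0.28 did not pass (adjusted p = 0.279 and 1).

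Both acetyltransferases tested fell at 18/1 5 hr, where 29.7% of all genes did. Kat2a (GCN5, the catalytic subunit of SAGA) read 9.38, 9.23, 9.22 and 9.10 in unstimulated samples and 7.78, 7.59, 7.36 and 7.12 at 18/1 5 hr, a difference of -1.77 ± 0.29 (3.41-fold lower, limma adjusted p = 8.66e-05). With spot filters that let a second probe in, the difference of Kat2a was -0.29 and did not pass. Kat5 (Tip60) fell by 0.66 ± 0.23 (adjusted p = 0.0245), a call that was lost in 5 of 43 alternatives, among them without array 1, 2 or 6. Another Kat5 probe went the same way, by -0.60, without passing (adjusted p = 0.0702 in the fit of single probes). Neither gene passed at 90/5 2 hr, with differences of -0.22 for Kat2a and -0.15 for Kat5. Kat2b (PCAF) again parted by array at 18/1 5 hr: 7.61 and 7.40 on array 5 lay below all unstimulated samples (8.79 to 8.96), and 9.01 and 9.24 on array 6 above them, giving -0.56 ± 0.54 (adjusted p = 0.438).

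Of the 8 lysine demethylases tested, 1 rose and 2 fell at 18/1 5 hr (14.9% and 29.7% of all genes did) and none was called at 90/5 2 hr. Kdm2a and Kdm2b are paralogs that bind unmethylated CpG islands and demethylate histone H3. Kdm2a (probe at chr19:4318137-4318196) read 10.58, 10.63, 10.59 and 10.19 in unstimulated samples and 6.75, 6.83, 8.60 and 8.30 at 18/1 5 hr, where the samples of array 5 were not well above background. The change on the log2 scale was -2.88 ± 0.45 (7.36-fold lower, limma adjusted p = 5.55e-05), but a second Kdm2a probe differed by 0.74 upward (adjusted p = 0.291 in the fit of single probes). Kdm2b read 9.63 to 9.84 in unstimulated samples and 10.90, 10.88, 10.94 and 11.04 at 18/1 5 hr with no overlap, and rose by 1.17 ± 0.27 (adjusted p = 0.00176). With each sample only centred on its median the rise of Kdm2b was 0.35 and did not pass. Kdm4b fell by 1.19 (adjusted p = 0.00507).

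Demethylases measured outside the common filter included Kdm1a (LSD1), at 0.03 ± 0.33 (adjusted p = 0.947) at 18/1 5 hr, and Kdm6b (JMJD3), which removes the Polycomb mark. Kdm6b read 8.85 to 9.15 in unstimulated samples and 9.46, 9.59, 9.70 and 9.66 at 90/5 2 hr, alike on both arrays and above every unstimulated sample, yet the difference of 0.62 ± 0.39 did not pass (adjusted p = 0.392). For Kdm5c, a demethylase encoded on the X chromosome, 2 probes were called in opposite directions at 18/1 5 hr, at 1.64 and -1.08 (adjusted p = 0.037 and 0.0158 in the fit of single probes).

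Setd8 (Kmt5a in RefSeq), which places a single methyl group on histone H4, read lower on all 4 arrays of slide 2. The probe (chr5:124911883-124911942) read 11.52, 11.58, 11.65 and 11.71 in unstimulated samples, 8.51 and 8.37 on array 5, 9.55 and 9.40 on array 6, 10.88 and 11.09 on array 7, and 9.59 and 9.56 on array 8. All 8 samples of slide 2 lay below the unstimulated ones, and array 8 of 90/5 2 hr lay level with array 6 of 18/1 5 hr. The log2 difference was -2.66 ± 0.35 at 18/1 5 hr (6.31-fold lower, limma adjusted p = 1.12e-05), called in all 43 alternatives, and -1.34 ± 0.35 at 90/5 2 hr (2.53-fold lower, adjusted p = 0.0237), which was -0.63 and not called without array 8, and not called without array 1 or 2. Another Setd8 probe went the same way at 18/1 5 hr, by -0.52, without passing (adjusted p = 0.301 in the fit of single probes). Setd3, an actin histidine methyltransferase despite its name, rose by 0.96 ± 0.25 at 18/1 5 hr (adjusted p = 0.00362), from 13.53 to 13.76 in unstimulated samples to 14.54 to 14.71, with 2 spots saturated; the rise was lost with median centring and with the GC trend removed. The other 5 SET domain genes tested did not pass in any of the 4 conditions. Setdb1, a silencing methyltransferase measured outside the common filter, differed by 0.88 ± 0.32 at 18/1 5 hr (adjusted p = 0.0385), a call lost in 15 of 42 alternatives.

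Of the 4 DNA methyltransferase genes, Dnmt3a and Dnmt3l passed the common filter. Dnmt1, the maintenance methyltransferase, read 9.74 to 10.18 in unstimulated samples and 6.93, 6.86, 8.51 and 8.58 at 18/1 5 hr, with the array 5 pair not well above background. On the log2 scale the difference was -2.21 ± 0.43 (limma adjusted p = 0.000764), given as a description because Dnmt1 passed the spot rule in 2 of 4 samples there and in 4 of 4 in each other condition. Dnmt3a, a de novo methyltransferase, varied widely within groups: 1 unstimulated sample read 10.66 and the others 9.08 to 9.45, and the 2.15-fold difference at 18/1 5 hr (SE 0.73 on the log2 scale) did not pass (adjusted p = 0.23). Dnmt3l, its catalytically inactive partner, fell by 0.69 at 18/1 5 hr (adjusted p = 0.00858), a call lost with median centring.

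Of the Tet genes, whose products oxidise methylcytosine, Tet2 alone lay within the common filter. Tet3 read 9.37, 9.44, 9.15 and 9.55 in unstimulated samples, 13.95 and 14.60 on array 5, 11.91 and 12.52 on array 6, 9.65 and 9.52 on array 7, and 12.36 and 13.15 on array 8. Within 90/5 2 hr, array 7 thus lay near unstimulated samples and array 8 near 18/1 5 hr. The log2 difference of Tet3 was 3.87 ± 0.70 at 18/1 5 hr (14.6-fold, limma adjusted p = 0.000441), with 1 of 4 spots saturated, and 1.79 ± 0.70 at 90/5 2 hr (adjusted p = 0.151); the methods' t-test did not call the first. Tet2 rose by 0.88 ± 0.25 at 18/1 5 hr (adjusted p = 0.00643), from 8.29 to 8.64 in unstimulated samples to 8.85 to 10.02, a rise lost with median centring, with the GC trend removed, by the methods' t-test and without array 2, and another Tet2 probe differed by -0.52 (adjusted p = 0.106 in the fit of single probes). Tet1 read 8.31, 8.40, 8.39 and 8.29 in unstimulated samples and 6.92, 7.18, 7.40 and 7.35 at 18/1 5 hr, a difference of -1.13 ± 0.24 (adjusted p = 0.00167). Since Tet1 passed the spot rule in 1 of 4 samples there and in 4 of 4 unstimulated ones, this value is a description. At 90/5 5 hr Tet1 read 9.09, 9.19, 9.62 and 9.34, above every unstimulated sample. The difference of 0.96 ± 0.24 there did not pass in the fit of all conditions (adjusted p = 0.264). Another Tet1 probe, under 2 times background in 7 samples, differed by 0.16 at 90/5 5 hr. At 18/1 5 hr that probe differed by -0.62 (adjusted p = 0.25 in the fit of single probes).

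Of the 7 arginine methyltransferases tested, 2 rose and 4 fell at 18/1 5 hr (14.9% and 29.7% of all genes did), and 2 rose and 1 fell at 90/5 2 hr (3.56% and 3.47%). Prmt10 (probe at chr8:80105178-80105237), which methylates a splicing factor, read 12.35, 12.25, 12.33 and 12.20 in unstimulated samples, 13.50, 13.99, 13.57 and 14.15 at 18/1 5 hr, and 13.15, 12.77, 13.71 and 14.25 at 90/5 2 hr. The log2 difference was 1.52 ± 0.34 (2.87-fold, limma adjusted p = 0.00119) and 1.19 ± 0.34 (2.27-fold, adjusted p = 0.0347); at 90/5 2 hr it was 0.68 and not called without array 8, and was lost in 19 of 43 alternatives. Prmt7 (probe at chr8:108775504-108775563) read 13.57 to 13.87 in unstimulated samples, 12.27 to 12.91 at 18/1 5 hr and 12.53 to 13.23 at 90/5 2 hr, with differences of -1.01 ± 0.22 (adjusted p = 0.00125) and -0.85 ± 0.22 (adjusted p = 0.0249). Without array 8 the second was -0.63 and was not called, nor was it without array 1, 2, 3 or 4. Another Prmt7 probe differed by -0.49 at 18/1 5 hr without passing (limma adjusted p = 0.384 in the fit of single probes).

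Prmt1, the main asymmetric arginine methyltransferase, followed another course. The probe (chr7:52232148-52232207) read 12.98, 12.96, 13.04 and 13.22 in unstimulated samples, 14.23 and 14.48 on array 7, and 13.56 and 14.15 on array 8, while 18/1 5 hr (12.92 to 13.64) overlapped with unstimulated samples. This gave a log2 difference of 1.06 ± 0.31 at 90/5 2 hr (2.08-fold, limma adjusted p = 0.0397) and 0.10 ± 0.31 at 18/1 5 hr (adjusted p = 0.812). In the fit of single probes neither this Prmt1 probe (adjusted p = 0.0877) nor another, at 0.50 (adjusted p = 0.2), passed at 90/5 2 hr. Prmt1 was the single member still called at 90/5 2 hr without array 8, and it was lost in 22 of 43 alternatives, among them without array 7, 1, 2, 3 or 4. Prmt2 rose by 0.80 at 18/1 5 hr (limma adjusted p = 0.011), with 2 of 4 spots saturated. Prmt3, Prmt5 and Prmt6 fell by 0.91, 0.78 and 0.79 (adjusted p = 0.041, 0.00583 and 0.00919), although another Prmt6 probe differed by 1.69 upward (adjusted p = 0.0019 in the fit of single probes). With the GC trend removed Prmt2, Prmt3 and Prmt5 were not called. Prmt2 was also lost with median centring, and Prmt3 without array 5. Prmt8, the membrane-bound form of neurons, was measured outside the common filter and differed by -1.43 ± 0.37 (adjusted p = 0.00584), a call lost without array 1.

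The remaining members complete the account. Of the 39 tested in all samples, 18 were not called at 18/1 5 hr, and their log2 differences ran from -0.93 (Kdm5a) to the value given for Dnmt3a. In the fit of single probes, other probes of the uncalled Sirt7 (-1.27 and -0.97, adjusted p = 0.00202 and 0.0308) and Kdm3b (-1.07, adjusted p = 0.0287) were called lower. Among the 23 outside the common filter, Kdm1b, a nuclear demethylase, differed by 1.78 ± 0.48 at 18/1 5 hr (limma adjusted p = 0.00727), Kdm5b was 2.46-fold higher (adjusted p = 0.00257), with another Kdm5b probe at -0.70 (adjusted p = 0.148 in the fit of single probes), and the mitochondrial desuccinylase Sirt5 differed by 0.79 ± 0.23 (adjusted p = 0.0114). Kat2b-ps, a pseudogene that the naming rule brings in, was not well above background in any 18/1 5 hr sample and was at least 1.64-fold lower there (adjusted p = 0.0222), a description since it passed the spot rule in 4 of 4 samples only at 18/1 2 hr, where it was highest; its near-identical parent Kat2b may share its signal. Dnmt3b, Kdm4d, Kdm6a, Setd7, Setdb2 and Sirt4 were not called at 18/1 5 hr, although another Sirt4 probe fell by 1.44 (adjusted p = 0.00199 in the fit of single probes). Most of the spots that kept these genes out of the common filter lay on slide 2, and the genes are counted in no total above; their differences at a condition where a spot failed the rule are descriptions.

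**Figure D3:**
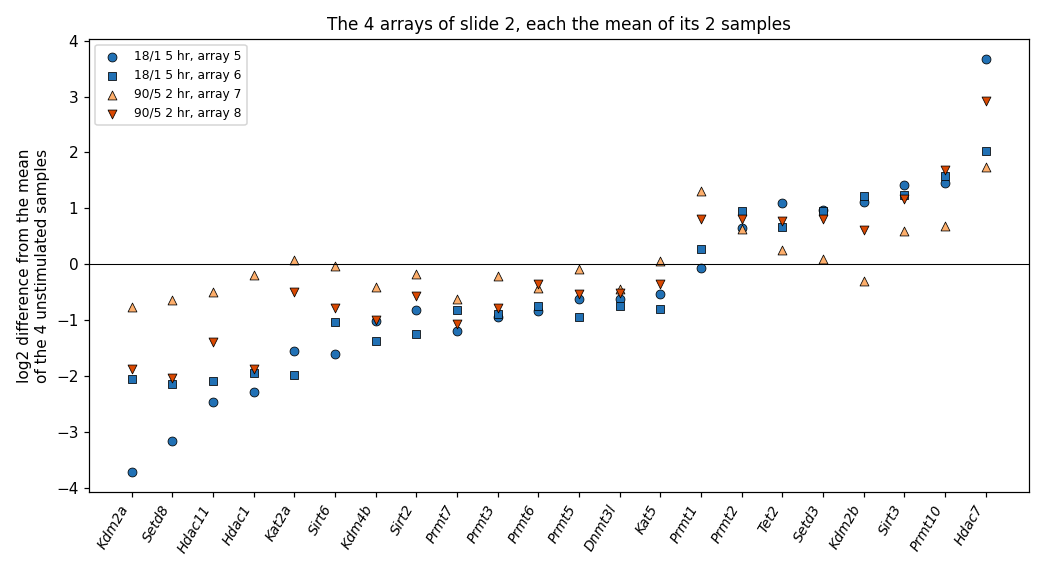
Log2 difference from the mean of the 4 unstimulated samples on each array of slide 2, each point the mean of an array's 2 samples, for the 22 members called at 18/1 5 hr or 90/5 2 hr. Array 7 stands at -0.63 for Setd8 and 1.31 for Prmt1, where array 8 stands at -2.04 and 0.81.

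The arrays of 90/5 2 hr differed from each other among these genes. Of the 39 members, 2 differed from unstimulated samples by more than 1 on array 7 (4.15% of all genes) and 8 did so on array 8 (21.6%), beside 18 on array 5 (40.4%) and 12 on array 6 (26.4%). Without array 8, 1 member (Prmt1) was called at 90/5 2 hr, beside 1.76% of all genes. Without array 7 the number was 13, beside 27.0% of all genes, and 6 of the 13 were among the 7 called with both arrays. Non-uniform spots numbered most on arrays 5, 6 and 8, as given above, and their part in the result was not tested. Without array 1 or array 2, the unstimulated arrays, no member was called at 90/5 2 hr, beside 120 and 87 of all 10355 genes. Without array 1 the number of members at 18/1 5 hr went from 21 to 13, and that of all genes from 4618 to 2591.

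Probe composition and the choice of probe moved with the direction of change at 18/1 5 hr. Members called higher had probes with a GC content of 35 to 41.7% (median 35), and members called lower 35 to 55% (median 45), beside medians of 35 and 45 for all genes called higher and lower. Across the 39 members, Spearman's rho between probe GC content and log2 difference was -0.646 at 18/1 5 hr, -0.613 at 90/5 2 hr and 0.105 at 90/5 5 hr, beside -0.481, -0.399 and 0.204 across all 10355 genes; genes of an array share its hybridisation and are not independent. With the trend on GC content removed, 4 members rose and 14 fell at 18/1 5 hr, 14 of these 18 being among the 21 called, beside 37.3% of all genes called, and 1 rose (Hdac7) and 2 fell (Hdac11 and Prmt7) at 90/5 2 hr, beside 5.18%. Probes for the same gene could also part: of the 19 members with several probes in the fit of single probes, 11 had all probes of 1 sign at 18/1 5 hr and 8 did not, and Hdac1, Kdm5c and Prmt6 had probes called in each direction.

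**Figure D4:**
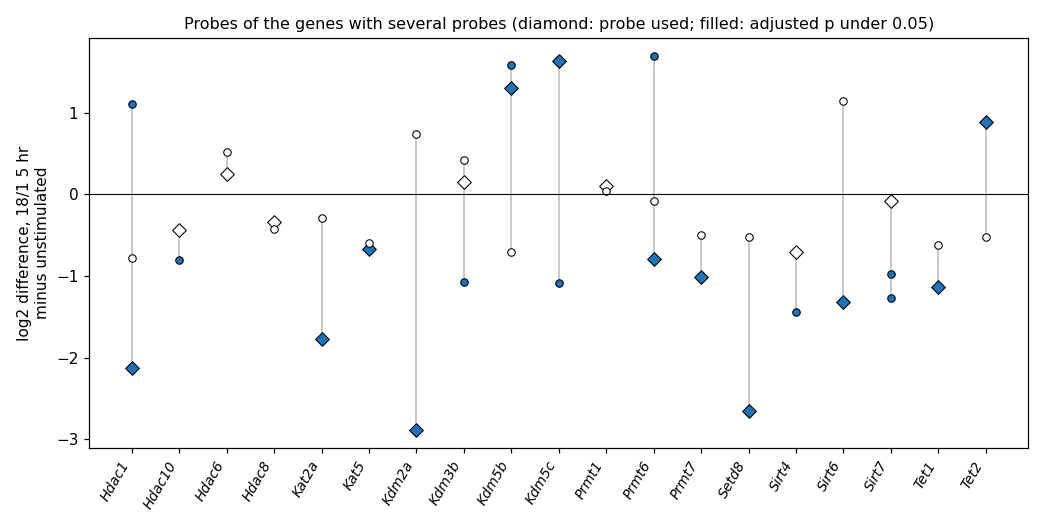
Log2 difference at 18/1 5 hr for the 19 members with several probes in the fit of single probes, showing the probes that passed its filter; diamonds are the probes used for the gene, circles the others, and filled symbols passed the adjusted threshold. The probes of Hdac1, Kdm5c and Prmt6 pass on both sides of 0.

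Against these measures, some named calls at 18/1 5 hr held in every alternative run that included the gene, among members tested in all samples. They were the rises of Prmt10 (log2 difference 1.05 to 1.64) and Sirt3 (0.86 to 1.42), and the falls of Setd8 (-3.17 to -1.84), Hdac11 (-2.60 to -2.10) and Prmt7 (-1.31 to -0.83). Sirt3 entered 42 runs and the others 43, since the run without saturated probes left Sirt3 out. Slide and condition remain inseparable for all of these calls. Fibroblast markers also stood higher in this condition, with a summed log2 level of 16.03 to 16.22 beside 14.09 to 15.45 in unstimulated samples and 1 of 4 tested genes called higher (Col1a1, 1.79, limma adjusted p = 0.00796). Endothelial markers stood lower, at 9.19 to 9.73 beside 11.15 to 11.71, with Pecam1 at -1.36 (adjusted p = 0.000819), and they were at 9.71 to 10.92 at 90/5 2 hr and higher, at 11.84 to 12.54, at 90/5 5 hr. Spinal cord markers did not overlap with unstimulated samples (up to 9.12) at 90/5 2 hr, where they were lower (8.86 to 8.96), or at 90/5 5 hr, where they were higher (9.46 to 10.09). Markers of cycling cells were at 7.65 to 7.83 at 18/1 5 hr and 7.93 to 8.17 at 90/5 5 hr, beside 8.18 to 8.29 in unstimulated samples, and in no 90/5 2 hr sample did they reach the lowest of these (Mki67 well above background in 4 of 4 unstimulated samples and Top2a in 3), while at 18/1 5 hr sensory neuron (18.80 to 19.38 beside 19.21 to 19.35), glial (15.16 to 16.40 beside 16.15 to 16.30) and macrophage markers (13.35 to 14.86 beside 14.34 to 14.90) overlapped. The part of these shifts in the members' values was not tested.

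The patterns were compared directly at each time. At 2 hr, 1 member was higher with 90/5 than with 18/1 (2.56%, against 2.66% of all genes) and 0 were lower (against 2.37%). At an unadjusted p under 0.05 there were 13 of 39 members, beside 2046 of all 10355 genes. The methods' t-test after Benjamini-Hochberg adjustment called 0 members and 0 of all genes. The member called higher was Hdac7, at 10.40 to 12.56 with 90/5 beside 8.91 to 9.74 with 18/1. Its log2 difference was 2.15 ± 0.47 (4.42-fold, limma adjusted p = 0.00931). This call of Hdac7 was lost without array 8, 3 or 4. For Prmt1 the difference was 0.81 ± 0.31 (adjusted p = 0.137), for Prmt10 1.01 ± 0.34 (adjusted p = 0.0879), for Sirt3 0.71 ± 0.23 (adjusted p = 0.0772) and for Hdac1 -1.12 ± 0.33 (adjusted p = 0.0549).

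At 5 hr, 15 members were higher with 90/5 than with 18/1 (38.5%, against 29.6% of all genes) and 8 were lower (20.5%, against 15.8%). The largest differences upward were Kdm2a (3.03 ± 0.45), Setd8 (2.60 ± 0.35) and Hdac1 (2.17 ± 0.33), and downward Hdac7 (-2.57 ± 0.47), Kdm2b (-1.53 ± 0.27) and Prmt10 (-1.21 ± 0.34), with limma adjusted p from 1.12e-05 to 0.00609. Filters that let in another probe turned Hdac1 to -1.18 and Kdm2a to -0.74. In the 18/1 5 hr samples 1 of 4 spots of Hdac1 and 2 of 4 of Kdm2a were well above background. Of the calls downward, Hdac7 was lost by the methods' t-test and Kdm2b with median centring. Prmt10 was lost with median centring, with the GC trend removed and without array 9. The 90/5 5 hr samples overlapped with unstimulated ones for Kdm2a, Setd8, Hdac1 and Hdac7, and did not for Kdm2b (9.05 to 9.59 beside 9.63 to 9.84) and Prmt10 (12.37 to 12.83 beside 12.20 to 12.35). With each sample only centred on its median, 19 members were higher and 2 lower, beside 57.5% of all genes called. This comparison shares the 18/1 5 hr samples with those above, and it sets slide 3 against slide 2.

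**Figure D5:**
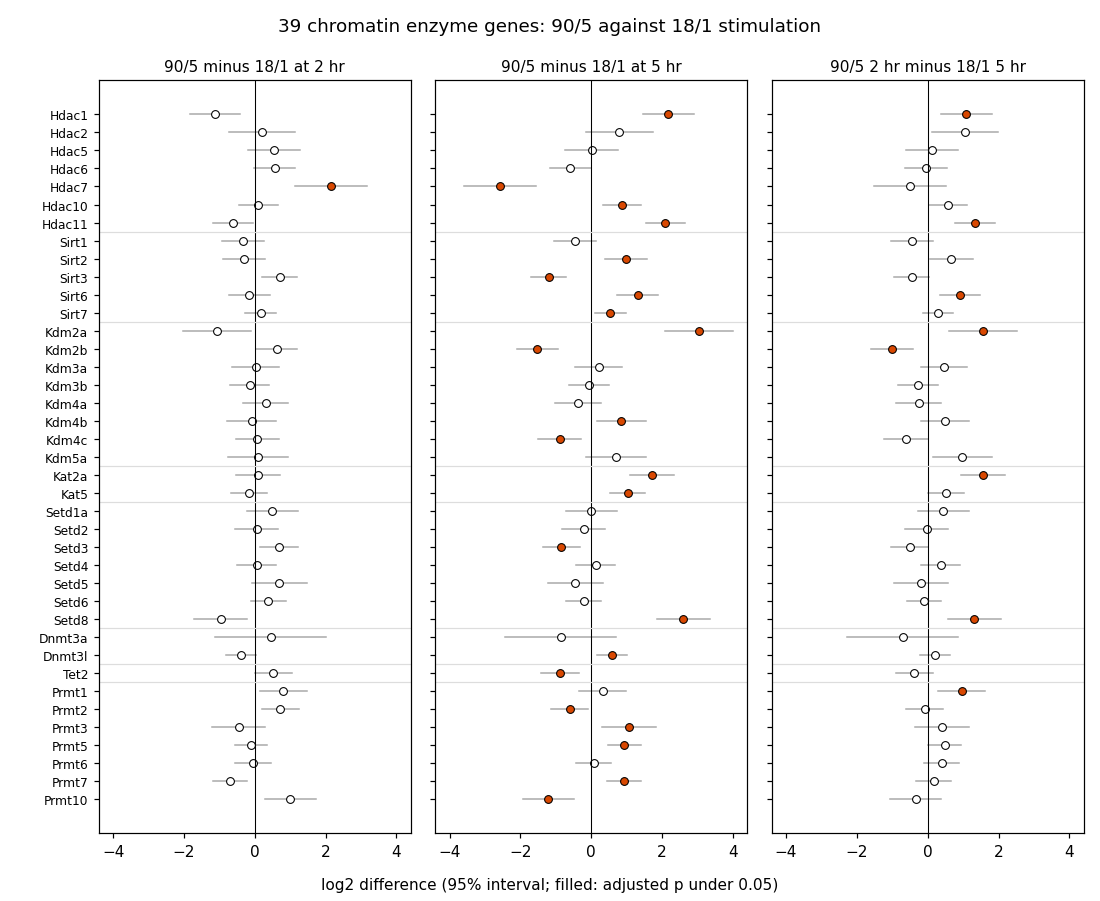
Log2 difference between 90/5 and 18/1 stimulation for the 39 members at 2 hr, at 5 hr, and between the conditions that shared slide 2 (90/5 2 hr minus 18/1 5 hr); bars are 95% intervals and filled points passed the adjusted threshold. Filled points number 1, 23 and 8.

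On slide 2 itself, 7 members were higher at 90/5 2 hr than at 18/1 5 hr (17.9%, against 10.1% of all genes) and 1 was lower (2.56%, against 2.76%). Kdm2a (1.56 ± 0.45), Kat2a (1.56 ± 0.29), Hdac11 (1.34 ± 0.26), Setd8 (1.32 ± 0.35), Hdac1 (1.09 ± 0.33), Prmt1 (0.96 ± 0.31) and Sirt6 (0.91 ± 0.27) were higher, and Kdm2b (-1.01 ± 0.27) was lower, with limma adjusted p from 0.00396 to 0.0448. Pattern and time both differ here, and another probe turned Hdac1 to -0.66 and Sirt6 to -0.31. At 18/1 5 hr Hdac1 was well above background in 1 of 4 samples, and Kdm2a and Sirt6 in 2 of 4 each. For Hdac7 (-0.51 ± 0.47), Sirt3 (-0.45 ± 0.23), Prmt10 (-0.33 ± 0.34) and Prmt7 (0.16 ± 0.22) the difference did not pass. The call was lost for all 8 when slide 2 was fitted alone, with 4 samples a side, and single arrays moved the number: leaving out array 7 gave 1 (0.57% of all genes), array 5 gave 2 (4.24%), array 6 gave 13 (34.3%) and array 8 gave 15 (33.5%).

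After 5 hr of 90/5, the values of most members lay near those of unstimulated neurons: the 39 differences ran from -0.72 (Prmt6) to 0.82 (Hdac5). Prmt6 differed without overlap between groups and did not pass (limma adjusted p = 0.815). At 2 hr of 18/1 the range was -0.62 (Kdm4b) to 0.39 (Hdac5). A p that misses the threshold does not show that these levels were alike.

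Other genes of chromatin regulation were counted on the same footing, 71 of 100 on the array being testable. At 18/1 5 hr 12 rose and 18 fell (14.9% and 29.7% of all genes did), at 90/5 2 hr 2 rose and 0 fell (3.56% and 3.47%), and 0 passed in the remaining pair of conditions. Deacetylase complex subunits, the partners of class I deacetylases, numbered 25, of which 1 rose (Tbl1xr1, 0.64, limma adjusted p = 0.0491) and 5 fell at 18/1 5 hr, among them Sap130 (-1.75, adjusted p = 0.00107) and Rcor1 (-1.70, adjusted p = 0.00537). Of 15 other histone methyltransferases 3 rose and 3 fell; Ehmt1 and Suv39h2, which methylate histone H3 in silent chromatin, rose by 2.85 and 2.68 at 18/1 5 hr and by 3.40 and 2.87 at 90/5 2 hr (adjusted p = 5.56e-05, 8.68e-05, 4.82e-05 and 0.000286). Among 13 Polycomb and trithorax subunits 4 rose and 4 fell, with Cxxc1 at -2.20 (adjusted p = 2.72e-05) and Ring1 at -1.73 (adjusted p = 7.34e-05). Of 10 other acetyltransferases 2 rose, Crebbp (1.29, adjusted p = 0.00154) and Clock (1.11, adjusted p = 0.00628), and 3 fell. Of 4 other demethylases and hydroxylases 1 rose and 2 fell, and of 4 readers and partners of DNA methylation Mbd1 rose by 2.13 (adjusted p = 0.000164) and Zbtb33 fell by 1.48 (adjusted p = 0.000689).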

How the data were processed

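Gene expression was measured with 10 two-colour Agilent arrays in 20 samples, 4 for each of 5 conditions, of cultured mouse DRG neurons. The authors deposited scanner output with mean and background intensity for each spot and colour, on a linear scale and not normalized; per the file headers it was extracted with Agilent Feature Extraction 10.7.1.1 (slide 1) or 10.7.3.1 (slides 2 and 3). Of the other columns of per-sample values, 720 were not used. Slide 1 carries an earlier annotation, so gene names were taken from the later one on all arrays (8333 spots differ).

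With limma 3.58.1 in R 4.3.3, spots were background-corrected (normexp, offset 50), normalized by loess within arrays and Aquantile between them, and control spots were given no weight. A spot had to be at least 2 times background and free of non-uniformity marks in all 20 samples; replicate spots were averaged, and the probe with the highest mean signal stood for the gene. Members that failed this filter were fitted with the same filter within a condition (18744 genes). The model had condition means, a colour term and array as a random block (consensus correlation 0.529), with empirical Bayes variance and Benjamini-Hochberg adjustment over all genes of a comparison at 0.05. Intervals are 95%. The fit was tested on simulated data. As an alternative, the unequal-variance test that the methods name was run on linear values with p under 0.05 and a fold change of at least 1.4 (the methods' t-test), without the methods' fold limit set for each transcript or their correction over spots of a transcript. Same-numbered samples of slide 1 deviated together (correlations 0.133 to 0.555), and a fit with replicate number as a block was run. No sample pair held identical intensities, and samples of a condition correlated at 0.9554 to 0.994.

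The members, the lists of other genes and the markers were chosen with earlier results of these data known. Named in full were members called in a condition other than 18/1 5 hr, the 6 largest each way at 18/1 5 hr, 19 enzymes of prior interest whatever their values, and the 3 largest each way between patterns. Columns of 18/1 5 hr and 90/5 2 hr are known by array and colour only. Alternatives for background, normalization, filter, saturation, probes, blocking, slide, test and samples were run; the background rule alone, removal of the GC trend and array quality weights were chosen after seeing the data. Promoters came from RefSeq (GRCm38.p6), where 63 members matched by symbol, 2 under a newer one, and 54 had an entry. Genome coordinates of probes are those of the files (mm9). Figures were drawn with matplotlib 3.10.9.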

Additional observations from a re-analysis of the deposited data

Results flagged for a closer look

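Among the 150 groups of 4 samples looked at for the 30 members named, 4 held a sample far from the other 3; chance gives about 1 in 20. These were Hdac9 at 18/1 2 hr (gap of 0.933 of the group's range, replicate 3 at 7.01 beside 6.93 to 6.94), Kdm2a in unstimulated neurons (0.884, replicate 4 at 10.19 beside 10.58 to 10.63), Sirt1 in unstimulated neurons (0.846, replicate 3 at 9.38 beside 8.94 to 9.01) and Tet2 in unstimulated neurons (0.842, replicate 4 at 8.29 beside 8.58 to 8.64).

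For 6 of the 39 members tested in all samples (15.4%, beside 11.8% of the 10355 genes), every 90/5 sample lay on one side of every 18/1 sample at 2 hr and on the other side at 5 hr; whether these differences differ was not tested. Hdac7 was 2.15 higher with 90/5 at 2 hr and stood at -2.57 at 5 hr, Sirt3 went from 0.71 to -1.20, Prmt2 from 0.72 to -0.61 and Setd3 from 0.69 to -0.84. Dnmt3l went the other way, from -0.38 to 0.58, as did Hdac1, from -1.12 at 2 hr to 2.17 at 5 hr; the Hdac1 probe was well above background in 1 of 4 samples at 18/1 5 hr, and another probe gave -1.18 at 5 hr. Outside the common filter, Kat2b-ps went from -0.65 to 0.72, with 0 of 4 samples well above background at 18/1 5 hr. In all of these the reversal sets slide 2 against slide 1 at 2 hr and slide 3 against slide 2 at 5 hr, so that slide cannot be told apart from pattern and time.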

How the results depend on the processing

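Depth here is signal over background: members well above background numbered 61 to 62 of 63 per sample on slide 1, 55 to 61 on slide 2 and 62 on slide 3, and the falls of Hdac1, Kdm2a, Sirt6 and Dnmt1 end near background. With 2 arrays per condition, single arrays decide several counts. Of the alternatives' values for single members, 8543 kept their side of the threshold (219 of them with a changed sign, called in neither fit), 338 no longer passed, 204 passed only there and 25 turned direction with a call on at least 1 side.

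The number of members called, leaving out each sample or array in turn, ran from 13 to 25 at 18/1 5 hr, 0 to 13 at 90/5 2 hr, 0 to 0 at 18/1 2 hr and 90/5 5 hr, 0 to 12 for 90/5 minus 18/1 at 2 hr, 15 to 24 for that at 5 hr and 1 to 15 for 90/5 2 hr minus 18/1 5 hr. In parentheses from here stand the numbers of all genes called, of 10355 tested unless another total is given. The 15 at 5 hr came without array 9 (3362). At 90/5 2 hr the number was 7 (728). It was 4 without saturated probes (421 of 8476), 13 with no array block (2312) and 3 with only the conditions compared (489). It was 1 by the methods' t-test after adjustment (82), 3 with the GC trend removed (536), 12 with array quality weights (1518) and 0 with no filter (506 of 30222). At 90/5 5 hr it was 0 (7), and it was 1 with no array block (51) and 2 by the methods' t-test (578). It was 3 with slide 2 left out (473 of 14902), with Tet1 higher and Hdac4 and Kdm3b lower. Array quality weights gave 14 at 90/5 5 hr (2601) and 6 at 18/1 2 hr (1599). For 90/5 minus 18/1 at 2 hr it was 1 (520). It was 4 with quantile normalization (539), 3 with median centring (413) and 10 with no array block (1832). It was 7 by the methods' t-test (1753) and 0 with its adjustment (0), 7 with array quality weights (1260) and 0 with no filter (404 of 30222). At 5 hr the adjusted methods' t-test gave 14 (2999) in place of 23 (4707). For 90/5 2 hr minus 18/1 5 hr it was 8 (1336), and it was 20 with median centring (4855) and 17 with no array block (3419). It was 0 with only those conditions (0), 0 within the slide (0 of 11250), 0 by the adjusted methods' t-test (0) and 3 with no filter (1863 of 30222). Median centring moved the median of all genes to -0.81 at 18/1 5 hr, 0.93 between patterns at 5 hr and 0.83 on slide 2. At 90/5 2 hr it gave 6 members higher and 0 lower (515). The cause was not tested, except that leaving out samples or adding genes tested changes power by construction.

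Direction turned where a filter let in another probe of the same gene (within a condition, by background alone, or no filter): Hdac1 to 1.11 at 18/1 5 hr, -1.18 between patterns at 5 hr and -0.66 on slide 2; Kdm2a to 0.74 and -0.74; Sirt6 to 1.14, -1.01 and -0.31. Tet1 on slide 2 turned to -0.13 in the within-slide fit; the cause was not tested. Replicate numbers are known for 3 conditions. Deviations of same-numbered samples correlated above 0.1 in all 4 pairs of unstimulated and 18/1 2 hr samples, which also share their colour. They did not do so in all pairs with 90/5 5 hr (range over the 12 pairs -0.34 to 0.555). These samples lie on another slide, so whether the numbers pair them cannot be told from the correlations. With the replicate block 0 members were called at 18/1 2 hr, beside 0.0676% of all genes. At 90/5 5 hr the block gave 2 members (Hdac5 and Prmt6), beside 3.65% of all genes.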
